A study of Mus musculus with 24 samples.

Results

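Galanin (Gal), its receptors Galr1, Galr2 and Galr3, and the orphan receptor Gpr151 were followed in dorsal root ganglia (DRG, which hold the cell bodies of sensory neurons) and in skin of a mouse rosacea model. The 5 genes were picked by symbol from the 45777 genes of the deposited table, because of how they differed between model and control in earlier results of the same libraries. Their differences between model and control are therefore given as descriptions, with no test. The libraries were polyA RNA sequencing of 4 groups of 6: model DRG, control DRG, model skin and control skin. All mice were female BALB/c aged 6 weeks. The model mice had LL37, a human antimicrobial peptide of the cathelicidin family, injected into the skin (320 µM, 40 µL, 2 times a day for 2 days), and the treatment of the control mice is not named in the labels or the series text. The series also names gabapentin, a drug given for nerve pain, at 100 mg/kg by mouth from day 3, with ganglia taken on day 4. No sample label names the drug, so it cannot be told which animals had it, and its part in any difference between model and control cannot be told apart from that of LL37. Nothing in the labels ties a library to its own animal, and p-values reflect the spread among these libraries, which may be technical.

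Galanin is a neuropeptide made from a precursor protein, stored in dense-core vesicles and released from nerve endings. In rodents a small share of sensory neurons makes it under resting conditions, and it is known as one of the neuropeptides that these neurons make in larger amounts after their axons are cut or inflamed. Galr1 and Galr3 encode receptors that act mainly through inhibitory G proteins of the Gi family, whereas the Galr2 receptor also couples to Gq and phospholipase C. Gpr151 encodes a receptor that resembles the galanin receptors in sequence but has no settled ligand, and it is known from habenular neurons and from injured sensory neurons.

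Total counts were 47801198 to 68396846 per library in model DRG, 52273676 to 63544026 in control DRG, 46549562 to 63531350 in model skin and 45238735 to 64547448 in control skin. Values below are CPM (counts scaled to library size, with TMM factors within a tissue) as mean ± SD over 6 libraries unless stated otherwise, and a floor of 3 counts was 0.0439 to 0.0663 CPM in a library. The floor covers counting error only. The tissue labels matched their markers: 10 sensory neuron genes summed to 10872 to 14187 CPM in model DRG and 11808 to 15663 CPM in control DRG, against 6.31 to 28.0 CPM in model skin and 10.2 to 45.6 CPM in control skin. The 6 keratinocyte genes summed to at most 5.18 CPM in ganglia and at least 7421 CPM in skin.

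Control DRG replicate 5 stood apart from the other 11 DRG libraries. A list of 9 genes of the brain and spinal cord, put together after the values were seen, summed to 467.6 CPM in this library and 14.3 to 22.4 CPM in the other 11. Slc6a5, the glycine transporter of inhibitory neurons, was at 35.1 CPM there against at most 0.324 CPM elsewhere, and the oligodendrocyte gene Mog was at 11.8 CPM against at most 0.439 CPM. The library also held the highest Gal and Galr2 values and the lowest Galr1 value of the control ganglia. DRG results are therefore given with and without it.

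In model ganglia Gal and Gpr151 stood far above the controls, while Galr1 and Galr2 lay at control levels and Galr3 had no counts. Of the 19509 genes tested in DRG, 19 passed edgeR's quasi-likelihood (QL) test with Benjamini-Hochberg (BH) adjustment and a threshold of 0.05, and all 19 were higher in model ganglia (0.0974%). Gal and Gpr151 were among them, 2 of the 4 members fitted. Both were chosen because of this difference, so their place among the 19 is a description and no test. The median log2 fold change of all genes tested was -0.01. Without control DRG replicate 5, 25 of 19567 genes passed as higher (0.128%).

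Gal (gene 14419, GRCm38.p6 chromosome 19, 3409915 to 3414544, minus strand) encodes the galanin precursor. It was at 30.7, 70.8 and 83.0 CPM (lowest, median and highest) in model ganglia, against 14.5, 16.6 and 25.2 CPM in control ganglia. No library of one group reached the other: the lowest model value was replicate 6 and the highest control value was replicate 5. The means were 65.3 ± 18.8 CPM in model ganglia and 18.0 ± 3.86 CPM in control ganglia, a log2 fold change of 1.86 ± 0.22 (SE), or 3.63-fold, rank 36 of the 19509 genes by size of increase. Without control DRG replicate 5 the control mean was 16.5 ± 1.72 CPM (n = 5) and the difference 3.95-fold. In bulk tissue, more cells with a transcript and more transcript per cell cannot be told apart.

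The DNA around the Gal start is shown because Gal was higher in the model in both tissues. The window runs from 250 bases before to 50 after the transcription start (RefSeq, GRCm38.p6, chr19:3414495-3414794, minus strand, written 5′ to 3′), and capitals mark the match to TGACG, the core of the cyclic AMP response element.
Gal promoter: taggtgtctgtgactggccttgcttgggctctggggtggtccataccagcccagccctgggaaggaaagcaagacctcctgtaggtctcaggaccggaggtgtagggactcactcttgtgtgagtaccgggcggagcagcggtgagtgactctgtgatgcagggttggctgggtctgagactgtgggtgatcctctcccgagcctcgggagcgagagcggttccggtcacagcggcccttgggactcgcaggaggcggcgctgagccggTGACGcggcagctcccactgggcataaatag
Both strands were searched for 5 motifs. The TGACG match begins 20 bases after this annotated start, and 20.8% of the 32851 promoters of the same length hold this motif. Gal has 2 listed transcripts and 1 start was searched, so positions hold for that start alone. No match was found in this window for the AP-1 motif TGANTCA (held by 7.81% of promoters), the full element TGACGTCA (1.79%), the STAT motif TTCNNNGAA (8.30%) or TATAAA (13.6%). TGACG is itself part of the full element TGACGTCA. Only exact matches were counted, so near matches such as the letters ATAAATA close to the end of the window were not. A match describes the letters and is not a site of binding. 

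Gpr151 (gene 240239, chromosome 18, 42577881 to 42579652, minus strand), the orphan receptor, was at 3.50, 5.93 and 9.15 CPM in model ganglia, against 1.16, 1.58 and 1.79 CPM in control ganglia. Again the groups did not overlap, and replicate 6 was the lowest of the model libraries. The means were 6.21 ± 1.83 CPM in model ganglia and 1.52 ± 0.212 CPM in control ganglia, a log2 fold change of 2.02 ± 0.19 (SE), 4.07-fold and rank 27 of the genes tested. Without control DRG replicate 5 it was 4.11-fold. In the whole table, 74 of 19509 genes (0.379%) had all model DRG libraries above all control DRG libraries, and 185 of 19567 (0.945%) did without control DRG replicate 5.

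**Figure D1:**
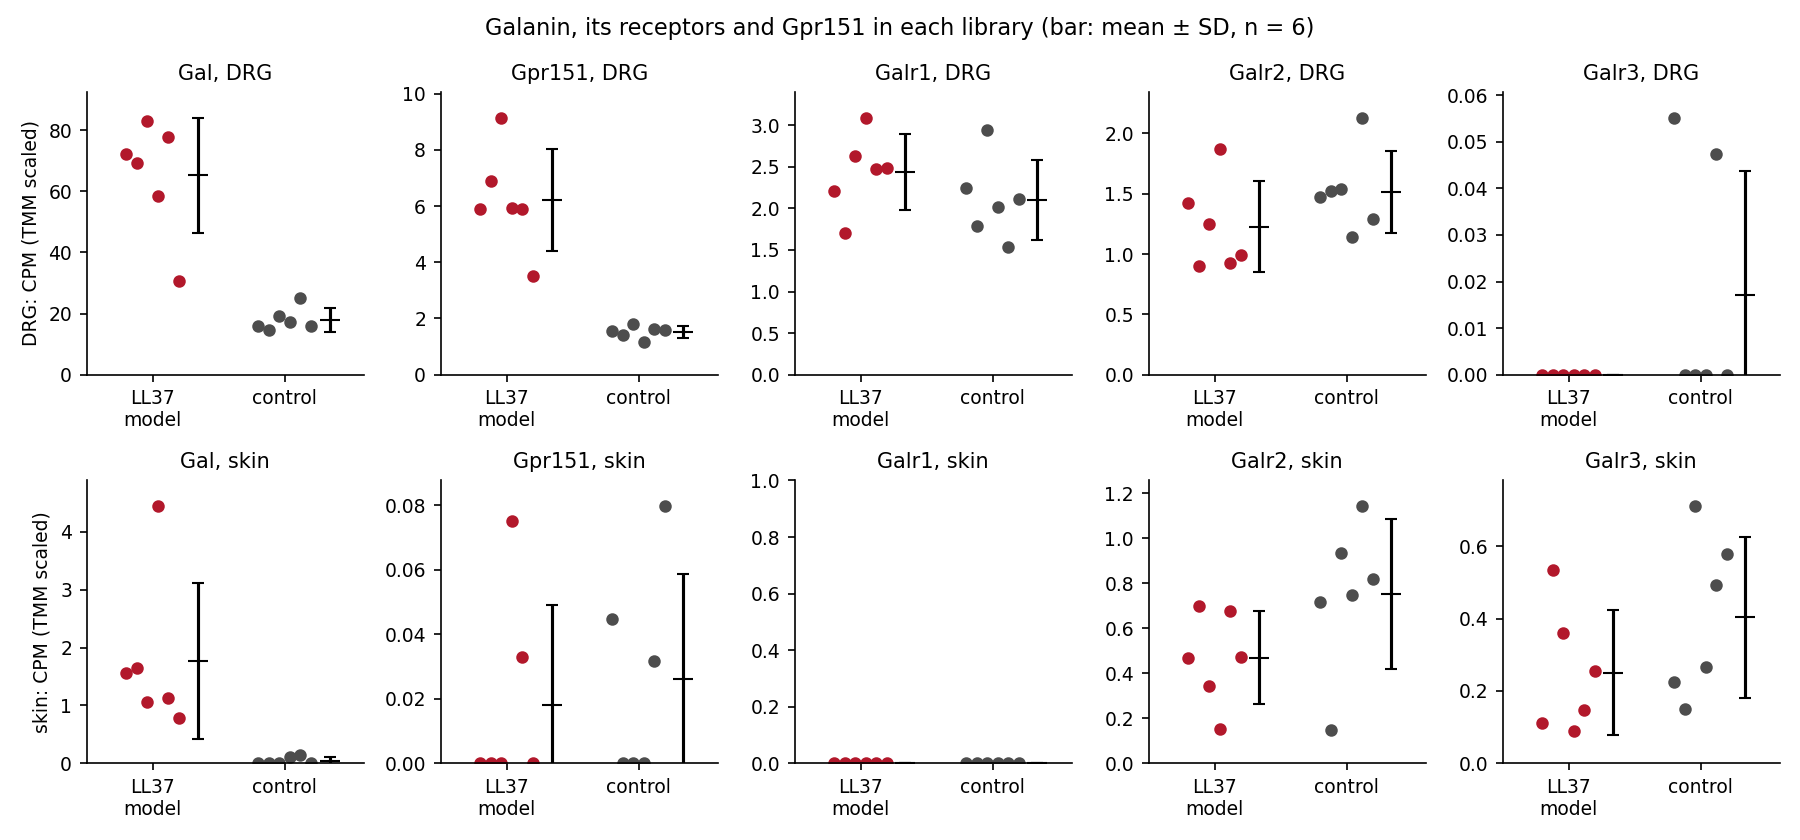
CPM of the 5 genes in each library (points, in order of replicate number) with mean ± SD (bars, n = 6), DRG in the upper row and skin in the lower row, model left of control; each panel has its own scale starting at 0. Gal and Gpr151 in ganglia and Gal in skin show no overlap between model and control, and Galr1 was at 0 in all 12 skin libraries.

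Galr1 (gene 14427, chromosome 18, 82392496 to 82406777, minus strand), the Gi-coupled receptor for galanin, was at 1.71, 2.48 and 3.09 CPM in model ganglia and 1.53, 2.07 and 2.94 CPM in control ganglia. The ranges overlapped. The means were 2.43 ± 0.458 CPM in model ganglia and 2.11 ± 0.481 CPM in control ganglia, a log2 fold change of 0.21 ± 0.17 (SE), and 0.13 ± 0.16 without control DRG replicate 5. Galr2 (gene 14428, chromosome 11, 116280106 to 116283950, plus strand), the receptor that also signals through Gq, was at 0.899, 1.12 and 1.87 CPM in model ganglia and 1.14, 1.50 and 2.13 CPM in control ganglia. Here 4 of the 5 lowest of the 12 values were model libraries, but the ranges overlapped. The means were 1.23 ± 0.377 CPM in model ganglia and 1.51 ± 0.338 CPM in control ganglia, a log2 fold change of -0.31 ± 0.21 (SE), and -0.18 ± 0.20 without control DRG replicate 5.

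Galr3 (gene 14429, chromosome 15, 79041885 to 79043558, plus strand), the third galanin receptor, had 0 counts in the 6 model DRG libraries and 6 counts in all in control DRG, 3 each in replicates 1 and 5. It did not pass the filter on low counts in DRG and no fold is given.

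The authors' TPM values, which are scaled to transcript length, allow levels of different genes to be compared. Gal averaged 212 ± 62.0 TPM in model ganglia and 56.3 ± 11.9 TPM in control ganglia. Gpr151 averaged 8.98 ± 2.67 TPM in model ganglia and 2.12 ± 0.325 TPM in control ganglia, Galr1 2.16 ± 0.414 and 1.81 ± 0.450 TPM, and Galr2 1.57 ± 0.509 and 1.86 ± 0.414 TPM, in the same order of groups. The order of levels in control ganglia was thus Gal far above Gpr151, Galr2 and Galr1, which lay within 1 SD of each other. In model ganglia the order was Gal, Gpr151 and then Galr1 and Galr2, whose ranges overlapped. Within a library, the ratio of Gal to Gpr151 TPM was 19.7 to 29.6 (median 22.4) in model ganglia and 22.5 to 35.4 (median 23.5) in control ganglia, so the balance of these genes overlapped between the groups. The median ratio of Gal to Galr1 TPM was 115 in model ganglia and 28.6 in control ganglia, and that of Gpr151 to Galr1 was 4.10 in model ganglia and 1.17 in control ganglia.

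Set against 22 other neuropeptide genes of sensory neurons, Gal ranked 5 of 23 by mean TPM in model ganglia and 7 of 23 in control ganglia. Above it in both groups were Calca, which encodes the calcitonin gene-related peptide (CGRP) of pain fibres (2713 TPM in model and 2921 TPM in control ganglia), Tac1, which encodes substance P (419 and 443 TPM), and Nmb, which encodes neuromedin B (316 and 343 TPM). Calcb, the second CGRP gene, was also higher, at 287 TPM in model and 310.1 TPM in control ganglia. Cartpt and Adcyap1, which encode the CART and PACAP peptides, lay above Gal in control ganglia (66.1 and 59.8 TPM) and below it in model ganglia (69.2 and 67.0 TPM).

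**Figure D2:**
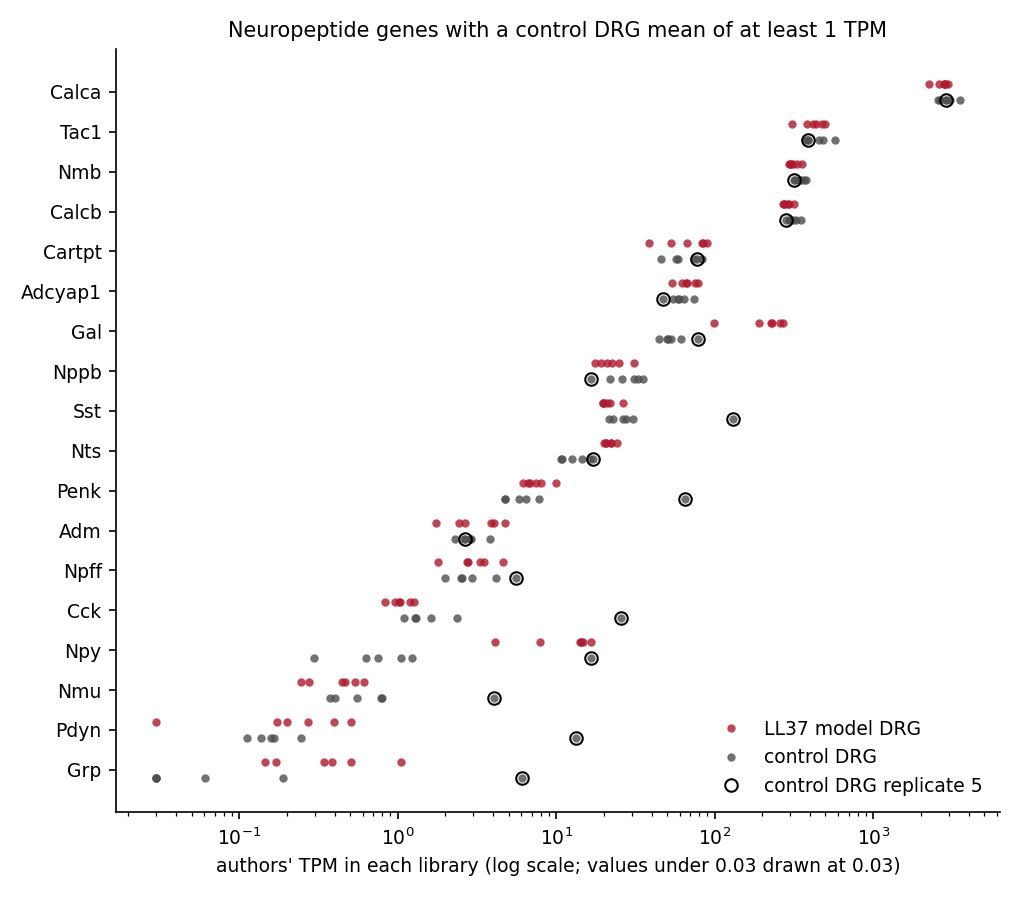
The authors' TPM (log axis, values under 0.03 drawn at 0.03) of Gal and of the other neuropeptide genes with a control mean of at least 1 TPM, 1 point per DRG library, with control DRG replicate 5 ringed. Gal in model libraries lies to the right of all control libraries, and the ringed library lies far to the right of the other controls for Sst, Penk, Cck, Npy, Nmu, Pdyn and Grp.

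Of the 22 other neuropeptide genes, 17 were tested in DRG and none passed in edgeR's QL test with BH adjustment, with 6 at an unadjusted p under 0.05, 1 called as higher by DESeq2, and a median log2 fold change of -0.13. Here control DRG replicate 5 decided the result. Npy, which encodes neuropeptide Y, was at 0.928, 3.17 and 3.66 CPM in model ganglia and 0.0760, 0.218 and 3.82 CPM in control ganglia. The highest control value was replicate 5, and the other 5 controls lay at most at 0.284 CPM, below all model libraries. The fit of all libraries gave a log2 fold change of 1.72 ± 0.84 (SE; edgeR QL, BH-adjusted p = 0.555). Without that library it was 3.77 ± 0.40 (SE), 13.7-fold (edgeR QL, BH-adjusted p = 0.00163). Nts, which encodes neurotensin, was at 9.33, 9.90 and 11.2 CPM in model ganglia and 5.12, 6.41 and 8.27 CPM in control ganglia, with no overlap. Its log2 fold change was 0.62 with all libraries and 0.70 without control DRG replicate 5 (edgeR QL, BH-adjusted p = 0.0777 and 0.0116). Npy and Nts were the 2 genes of the list that passed without that library, when 16 were tested and the median was 0.04. Cck, which encodes cholecystokinin, had a log2 fold change of -2.41 in the fit of all libraries, and Nmu, which encodes neuromedin U, of -1.42 (edgeR QL, BH-adjusted p = 0.468 and 0.510). For these, control DRG replicate 5 was at 7.40 and 1.36 CPM and the other 11 ganglia at most at 0.690 and 0.285 CPM.

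A list of 19 genes known to be induced in sensory neurons by axon injury was described beside Gal and Gpr151. It was chosen with earlier results of these data known, so its calls are no independent support. Of all 19509 genes tested in DRG, 0.0974% passed as higher. In DRG 5 of 19 passed as higher and none as lower (edgeR QL with BH adjustment), with 7 at an unadjusted p under 0.05, 6 called as higher by DESeq2 and a median log2 fold change of 0.24. Atf3, a stress-induced transcription factor, was at 24.1, 31.3 and 38.9 CPM in model ganglia and 4.19, 6.02 and 6.88 CPM in control ganglia. All model libraries were above all controls, and the log2 fold change was 2.46 ± 0.14 (SE; edgeR QL, BH-adjusted p = 1.62e-06). Sprr1a, which encodes a small proline-rich protein of regrowing axons, was at 5.10, 22.2 and 23.8 CPM in model ganglia and 0.0775, 0.148 and 0.497 CPM in control ganglia. Its log2 fold change was 6.25 ± 0.51 (SE; edgeR QL, BH-adjusted p = 0.00032), and model replicate 6 was the lowest model library, as it was for Gal, Gpr151 and Npy.

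Gadd45a, a growth arrest and DNA damage gene, averaged 19.8 ± 1.94 CPM in model ganglia and 12.2 ± 0.781 CPM in control ganglia (log2 fold change 0.70; edgeR QL, BH-adjusted p = 0.000547). Flrt3, an adhesion protein of neurons, averaged 30.7 ± 3.69 CPM in model ganglia and 17.5 ± 2.15 CPM in control ganglia (log2 fold change 0.81; edgeR QL, BH-adjusted p = 0.00176). Sox11, a transcription factor of developing and regrowing neurons, averaged 16.7 ± 1.18 CPM in model ganglia and 12.1 ± 1.38 CPM in control ganglia (log2 fold change 0.47; edgeR QL, BH-adjusted p = 0.0407). For these 3 genes too, no model library overlapped a control library. Without control DRG replicate 5 the same 5 genes and Cckbr, a cholecystokinin receptor gene, passed as higher, 6 of 19, with a median of 0.36. Control DRG replicate 5 carries brain and spinal cord genes, and the 5 calls stood with and without it.

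Genes that act upstream or downstream of galanin did not pass in DRG. None of 18 tested genes of gp130 cytokine and growth factor signalling, which are known inputs to Gal, passed in the QL test of edgeR (4 at an unadjusted p under 0.05, 1 called as higher by DESeq2, median log2 fold change 0.06). Clcf1, a gp130 ligand, had a log2 fold change of 0.64 and Il6, another ligand of this family, of 0.83 (edgeR QL, BH-adjusted p = 0.372 and 0.500). The shared receptor gene Il6st was at 537 ± 36.3 CPM in model ganglia and 489.6 ± 33.6 CPM in control ganglia (BH-adjusted p = 0.519).

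None of 23 tested G protein and effector genes of galanin receptors passed in edgeR in DRG (2 at an unadjusted p under 0.05, none by DESeq2, median -0.01), and none of 15 genes of peptide processing and dense-core vesicles (1 at an unadjusted p under 0.05, none by DESeq2, median -0.07). Scg5, which encodes a chaperone of the convertase that cleaves neuropeptide precursors, was at 296 ± 19.5 CPM in model ganglia and 322 ± 14.1 CPM in control ganglia (edgeR QL, BH-adjusted p = 0.510). Adcy9, which encodes an adenylyl cyclase, had a log2 fold change of 0.14 (BH-adjusted p = 0.485). Of 18 other Gi-coupled receptors of sensory neurons, none passed in the QL test of edgeR (1 at an unadjusted p under 0.05, none by DESeq2, median -0.06). The somatostatin receptor gene Sstr4 had a log2 fold change of 0.64 (BH-adjusted p = 0.466). Of 4 ligands and receptors related to the galanin system, 2 were tested and neither passed by edgeR or DESeq2, nor at an unadjusted p under 0.05. Kiss1r, the kisspeptin receptor gene, was at 5.35 ± 0.621 CPM in model ganglia and 5.10 ± 0.556 CPM in control ganglia. Spx, which encodes spexin, another ligand of galanin receptors, was at 1.48 ± 0.312 CPM in model ganglia and 1.55 ± 0.341 CPM in control ganglia.

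**Figure D3:**
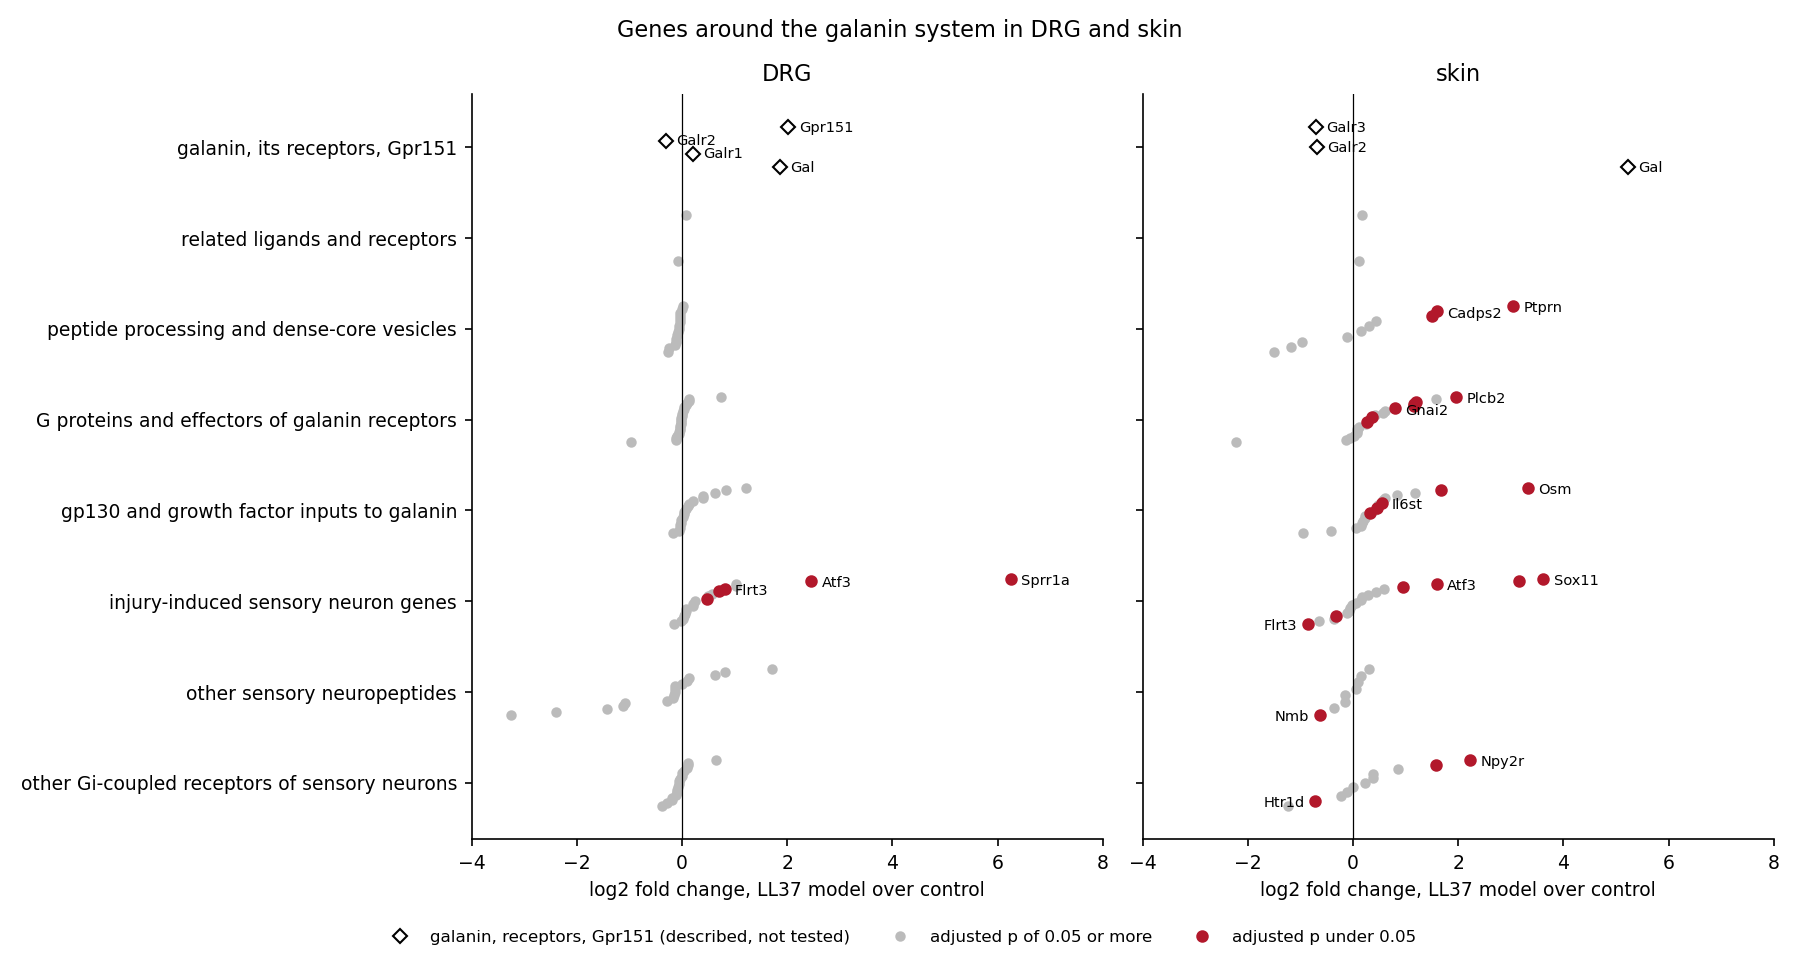
Log2 fold change, LL37 model over control, of the members (open diamonds, shown without a test) and of the tested genes of 7 lists (1 point per gene, red where the BH-adjusted p of edgeR's QL test was under 0.05; some red points carry names), in DRG on the left and skin on the right, with control DRG replicate 5 included. In DRG the red points all belong to the injury list.

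The median log2 fold changes of the cell type marker lists in ganglia lay between -0.16 and 0.29, except for neutrophil markers at 1.16. None of the 10 sensory neuron markers passed (edgeR QL, none at an unadjusted p under 0.05, median log2 fold change -0.07). Per 1000 CPM of their sum, Gal was at 5.18 ± 1.49 CPM in model ganglia and 1.35 ± 0.189 CPM in control ganglia, and Gpr151 at 0.497 ± 0.161 and 0.117 ± 0.0235 CPM. Both genes were thus higher in model ganglia on this scale too. The part of neuron content in these differences was not tested. The log2 fold changes of the 6 neutrophil markers ran from 0.61 to 1.51 and none passed (edgeR QL, 2 at an unadjusted p under 0.05). They summed to 20.5 to 327 CPM in model ganglia and 22.8 to 92.7 CPM in control ganglia, and their part in the Gal values was not tested. The neutrophil sum was highest in model DRG replicate 5 and lowest of all 12 ganglia in model DRG replicate 6, at 327 and 20.5 CPM, where Gal was at 77.8 and 30.7 CPM. Gal was highest in model DRG replicate 3, at 83.0 CPM, with a neutrophil sum of 56.5 CPM, and model DRG replicate 1 had Gal at 72.2 CPM with a sum of 27.0 CPM. The 6 fibroblast markers, with the median of 0.29 and none passed (edgeR QL, 1 at an unadjusted p under 0.05), summed to 1467 to 2964 CPM in model ganglia and 1536 to 2323 CPM in control ganglia, and their part was not tested either.

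Across the 12 DRG libraries Gal and Gpr151 followed each other closely. Likeness was measured as the root mean square (RMS) difference of log2 CPM after each gene was centred on its own mean, and it was 0.25 between Gal and Gpr151, against an RMS spread of 0.99 for Gal itself and 1.03 for Gpr151. Over the 11 libraries without control DRG replicate 5 it was 0.22. Both genes were chosen for the same difference between groups, so a low value is a description.

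Of the 5 other genes nearest to Gal, 4 are named here: Star, a cholesterol transport gene (0.45), Tnfrsf8, which encodes the receptor CD30 (0.47), Atf3 (0.52) and Rspo3, an enhancer of Wnt signalling (0.56). The same 5 genes were nearest to Gpr151, among them Atf3 at 0.48 and Star at 0.50. Star was at 2.13, 3.36 and 4.12 CPM in model ganglia and 1.22, 1.59 and 1.85 CPM in control ganglia, with no overlap. Model replicate 6 was the lowest model library for Star and Rspo3 as well. Within the 6 model ganglia, log2 CPM of Gal and Gpr151 had a Pearson r of 0.89 (exact permutation p = 0.0556, BH-adjusted over 10 relations p = 0.556) and a Spearman rho of 0.54 (exact permutation p = 0.297, BH-adjusted p = 0.743). Without the 2 libraries farthest from the median of Gal, r was 0.59. Within the 6 control ganglia r was 0.30 (exact permutation p = 0.572, BH-adjusted p = 0.895) and rho was 0.60 (exact permutation p = 0.242, BH-adjusted p = 0.743), with r of -0.51 without the 2 farthest libraries. None of the 10 relations passed, and they were chosen after the values were seen.

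**Figure D4:**
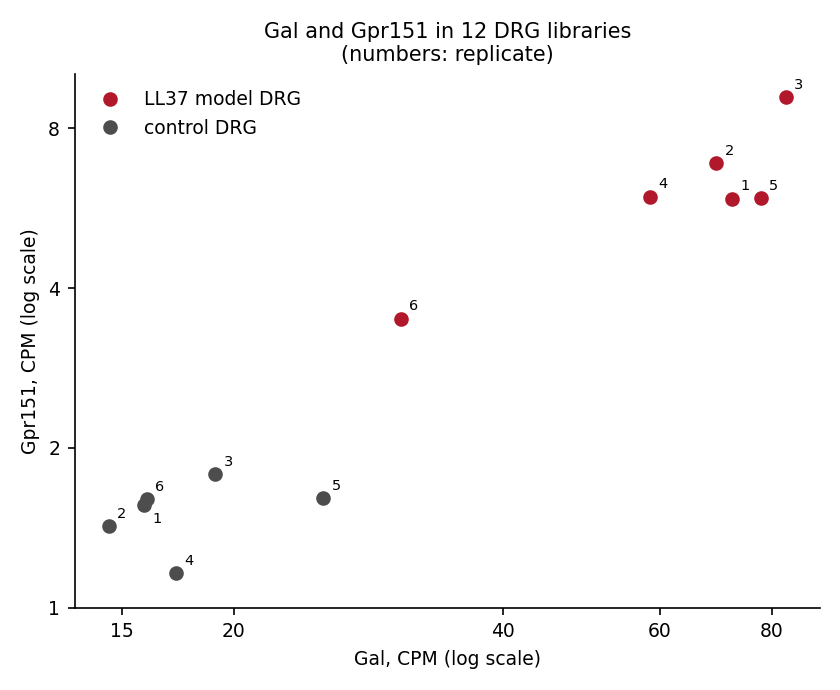
CPM of Gal (x) against Gpr151 (y) in the 12 DRG libraries, on log axes, with the replicate number beside each point. The 6 model libraries lie above and to the right of the 6 control libraries, and model replicate 6 lies nearest to the controls.

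In skin Gal was low but present in all 6 model libraries and near absent in controls, while the receptor genes were low in both groups. Gal was at 0.785, 1.34 and 4.45 CPM in model skin (40 to 296 counts), against 0 counts in 4 control libraries and 0.106 and 0.143 CPM in control replicates 4 and 5 (6 and 9 counts). The groups did not overlap, and model skin replicate 4 was far above the other 5 model libraries. The means were 1.77 ± 1.35 CPM in model skin and 0.0415 ± 0.0654 CPM in control skin, a log2 fold change of 5.22 ± 0.81 (SE), 37.3-fold and rank 30 of 19526 genes tested by size of increase. Without model skin replicate 4 the model mean was 1.24 ± 0.361 CPM (n = 5) and the difference 26.5-fold. Since the control group held 15 counts, the fold is imprecise: the log2 fold change was 6.13 without control skin replicate 5.

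Of the 19526 genes tested in skin, 3892 passed (19.9%), 2755 as higher (14.1%) and 1137 as lower (5.82%). Gal was the 1 member of 3 fitted that was among the higher genes. The members were chosen with this difference known, so this too is a description and no test. All model libraries lay above all control libraries for 7.25% of genes, and below them for 1.44%. The median log2 fold change of all genes was -0.02.

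Galr2 was at 0.150, 0.470 and 0.700 CPM in model skin and 0.149, 0.781 and 1.14 CPM in control skin. The ranges overlapped only through control skin replicate 2, at 0.149 CPM. The other controls lay at 0.715 to 1.14 CPM, above all model libraries. The log2 fold change over all libraries was -0.69 ± 0.43 (SE), and -0.90 to -0.48 with each library left out in turn. Galr3 was at 0.0901, 0.202 and 0.536 CPM in model skin and 0.149, 0.379 and 0.711 CPM in control skin, again overlapping, with a log2 fold change of -0.71 ± 0.49 (SE). With each library left out in turn it was -1.06 to -0.47. Galr3 shares 363 of its 1245 exon bases with Gcat, a neighbouring gene of amino acid breakdown on the same strand (GENCODE vM21), so its few counts could include reads of Gcat. Gcat was at 29.2 to 53.4 CPM in model skin and 56.1 to 90.2 CPM in control skin, and fell (log2 fold change -0.82; edgeR QL, BH-adjusted p = 0.00433), and its part in the Galr3 values was not tested. Galr1 had 0 counts in all 12 skin libraries. Gpr151 had 7 counts in model skin, in 2 libraries, and 8 counts in control skin, in 3 libraries, and neither gene passed the filter on low counts.

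Genes known from muscle were among those nearest in pattern to Gal in skin. The 5 nearest over the 12 libraries, against an RMS spread of Gal of 2.49, were Mymx, which encodes the muscle fusion protein myomixer (0.72), Msln, which encodes the mesothelial protein mesothelin (0.77), Myl4, a myosin light chain gene of fetal muscle and atrium (0.91), Tnnc1, the slow and cardiac troponin C gene (0.94), and Plac8 (0.96). Mymx was at 1.30, 1.92 and 4.55 CPM in model skin and 0, 0.0585 and 0.142 CPM in control skin, with the highest value in model replicate 4, the library highest in Gal. Its log2 fold change was 5.07 ± 0.52 (SE; edgeR QL, BH-adjusted p = 0.000548). Msln was at 4.55, 6.68 and 12.5 CPM in model skin and 0.104, 0.215 and 0.479 CPM in control skin, and was also highest in model replicate 4.

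Several marker lists also differed between model and control skin, where 14.1% of all genes tested rose and 5.82% fell. Of the 7 genes of regenerating muscle, 6 rose, and the list summed to 93.1 to 254 CPM in model skin and 30.0 to 90.9 CPM in control skin, highest in model replicate 4 and lowest of the model libraries in replicate 6, as Gal was. Myl4, named above among the genes nearest to Gal, is part of this list. All 8 macrophage markers rose (456 to 1411 CPM summed in model skin, 140 to 358 CPM in control skin), as did 5 of 7 T cell markers (16.2 to 198 and 6.08 to 17.6 CPM), 6 of 7 mast cell markers (114 to 219 and 69.7 to 105 CPM) and 6 of 6 endothelial markers (146 to 316 and 84.1 to 142 CPM). Of 6 fibroblast markers 3 rose and all 6 were at an unadjusted p under 0.05 (9299 to 16211 CPM summed in model skin, 4567 to 9515 CPM in control skin), and this sum too was highest in model replicate 4. Of 5 tested neutrophil markers 2 rose, with the list at 59.3 to 253 CPM in model skin and 18.5 to 281 CPM in control skin. Of 6 melanocyte markers 3 fell and all 6 were at an unadjusted p under 0.05 (84.3 to 177 CPM summed in model skin, 105 to 941 CPM in control skin). Of 7 Schwann cell markers 1 rose (220 to 336 CPM summed in model skin, 132 to 239 CPM in control skin). Of 10 sensory neuron markers 6 were tested and 1 rose, Uchl1, with the list at 6.31 to 28.0 CPM in model skin and 10.2 to 45.6 CPM in control skin. The 6 hair follicle genes summed to 1787 to 25316 CPM in model skin and 1165 to 50055 CPM in control skin. The value of 1165 CPM was control skin replicate 2, and the other controls lay at 31928 CPM or more, above all model libraries. None of these genes passed (edgeR QL, 4 at an unadjusted p under 0.05, median log2 fold change -1.58). Control skin replicate 2 also had the highest control sums of regenerating muscle, T cell, mast cell, endothelial, fibroblast and Schwann cell markers. It had the lowest control sums of neutrophil, melanocyte and sensory neuron markers. The part of these cell types in the Gal values was not tested.

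The lists of genes around the galanin system are to be read against the 14.1% of all genes that rose and the 5.82% that fell in skin. Of 19 genes of gp130 cytokine and growth factor signalling, all tested, 5 rose and none fell (edgeR QL with BH adjustment, 8 at an unadjusted p under 0.05, median log2 fold change 0.41), and 3 rose without model skin replicate 2 or 4 or control skin replicate 3, 5 or 6. DESeq2 called 5 of this list as higher and 2 as lower, Il11ra1 and Cntfr, which encode cytokine receptor subunits. Osm, which encodes the gp130 ligand oncostatin M, was at 0.758, 1.37 and 4.20 CPM in model skin and 0.0798, 0.155 and 0.335 CPM in control skin, with no overlap (log2 fold change 3.32 ± 0.50 (SE); edgeR QL, BH-adjusted p = 0.000929). Il6st averaged 221 ± 38.2 CPM in model skin and 152 ± 24.2 CPM in control skin (log2 fold change 0.54; edgeR QL, BH-adjusted p = 0.0121). Jak1, a kinase that acts below these receptors, had a log2 fold change of 0.45 (BH-adjusted p = 0.0457).

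Of 21 tested G protein and effector genes, 7 rose and none fell in skin (edgeR QL, 9 at an unadjusted p under 0.05, median 0.30), and 11 rose without control skin replicate 2. DESeq2 called 9 as higher and none as lower. Gnai2, a Gi subunit gene, averaged 204 ± 38.5 CPM in model skin and 118 ± 11.3 CPM in control skin (log2 fold change 0.79; edgeR QL, BH-adjusted p = 0.00128). Plcb2, a phospholipase C gene known from blood cells, had a log2 fold change of 1.96, Arrb2, which encodes an arrestin, of 1.20, and Adcy5, an adenylyl cyclase gene, of 1.17 (BH-adjusted p = 0.00239, 0.00267 and 0.00702). Of 10 tested genes of peptide processing and dense-core vesicles 3 rose and none fell in edgeR (4 at an unadjusted p under 0.05, median 0.23), while DESeq2 called 3 as higher and 1, Ptprn2, as lower (edgeR QL, log2 fold change -1.50, BH-adjusted p = 0.0645). The 3 that rose in edgeR were Scg3, a granin gene (1.89 ± 0.542 CPM in model skin, 0.674 ± 0.285 CPM in control skin), Cadps2, a vesicle priming gene (4.59 ± 3.15 and 1.51 ± 0.436 CPM), and Ptprn, a gene of vesicle membranes (0.789 ± 0.280 and 0.0899 ± 0.133 CPM), with BH-adjusted p = 0.00402, 0.0123 and 0.0143 (edgeR QL). Each of these 3 had all model libraries above all controls.

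Of 18 tested injury-induced genes 4 rose in skin and 2 fell (median 0.11). Sox11 averaged 2.72 ± 1.11 CPM in model skin and 0.220 ± 0.128 CPM in control skin (log2 fold change 3.62), Gap43, which encodes a growth cone protein, 3.18 ± 1.20 and 0.355 ± 0.215 CPM (3.16), Atf3 22.5 ± 6.07 and 7.47 ± 4.00 CPM (1.59), and Csf1, which encodes a macrophage growth factor, 49.4 ± 11.9 and 25.7 ± 7.43 CPM (0.95), with BH-adjusted p = 0.000548, 0.000582, 0.00323 and 0.00708 (edgeR QL). Flrt3 and Smad1 fell, with log2 fold changes of -0.86 and -0.33, and these calls did not stand when 1 of several libraries was left out. With 1 library left out, 0 to 3 genes of the list fell. DESeq2 called 4 of the list as higher and 2, Flrt3 and Smad1, as lower. Of 8 tested neuropeptide genes none rose and Nmb fell (log2 fold change -0.64; edgeR QL, BH-adjusted p = 0.0398, median -0.05). DESeq2 too called only Nmb of these genes, as lower. Of 11 tested Gi-coupled receptor genes Npy2r, a neuropeptide Y receptor gene, and Adora1, an adenosine receptor gene, rose (2.23 and 1.57, BH-adjusted p = 0.0153 and 0.0211), and Htr1d, a serotonin receptor gene, fell (-0.72, BH-adjusted p = 0.0459), with a median of 0.22. DESeq2 called 3 of these receptor genes as higher and 2 as lower, Htr1d and Chrm2, a muscarinic receptor gene. The calls of Nmb and Htr1d were likewise lost when single libraries were left out. Of the related ligands and receptors, Spx and Kiss1r were tested and did not pass (log2 fold changes 0.17 and 0.12, median 0.14; none at an unadjusted p under 0.05 or by DESeq2).

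The comparison of control DRG with control skin was not used to choose the genes, and asked where they are expressed without the model. Of 20448 genes tested 17043 passed (83.3%), 8587 as higher (42%) and 8456 as lower (41.4%) in DRG. Gal, Galr1 and Gpr151 passed the filter on low counts through DRG alone, with 15, 0 and 8 counts over the 6 control skin libraries. That filter set their direction, so their p-values, here and below, are no support for it. For the same reason no count of members is given. Gal was at 14.5 to 25.2 CPM in control DRG and 0 to 0.143 CPM in control skin, scaled within each tissue, with a log2 fold change of 8.59 ± 0.54 (SE; edgeR QL, BH-adjusted p = 5.62e-09). Gpr151 was at 1.16 to 1.79 CPM in control DRG and 0 to 0.0798 CPM in control skin, with a log2 fold change of 5.85 ± 0.49 (SE; edgeR QL, BH-adjusted p = 1.11e-07). Every library of control DRG was above every library of control skin for both genes, as it was for 36.1% of genes tested, with the reverse for 33.3%.

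Galr1 was at 1.53 to 2.94 CPM in control DRG with no counts in control skin (edgeR QL, BH-adjusted p = 9.31e-08). Its mean of 2.11 CPM was at least 227-fold higher than the floor of 3 counts over the 6 control skin libraries, 0.00927 CPM. Galr2 differed less, 2.07-fold: it was at 1.14 to 2.13 CPM in control DRG and 0.149 to 1.14 CPM in control skin (log2 fold change 1.05 ± 0.34 (SE); edgeR QL, BH-adjusted p = 0.0120). Galr3 went the other way, with 6 counts over control DRG and 133 counts over control skin. No control DRG library held more than 3 counts of it, and it was at 0 to 0.0552 CPM in control DRG and 0.149 to 0.711 CPM in control skin. It did not pass the filter in the fit of all control libraries. With no filter its log2 fold change was -4.32 ± 0.74 (SE; edgeR QL, BH-adjusted p = 0.000121). Without control DRG replicate 5 it passed the filter, with a log2 fold change of -4.93 (edgeR QL, BH-adjusted p = 0.000108). It passed through its skin counts, which set this direction, so this p-value is no support for it. The ratio of its count shares was then 0.0257 (exact 95% interval 0.00524 to 0.0768, counting error only), from 3 counts in control DRG and 133 in control skin. Without control DRG replicate 5 the log2 fold changes were 8.46 for Gal, 5.83 for Gpr151 and 0.93 for Galr2 (edgeR QL, BH-adjusted p = 3.57e-08, 4.52e-07 and 0.0278). That of Gal was 9.50 without control skin replicate 5, and that of Gpr151 was 6.51 without control skin replicate 6. Control skin replicate 5 held 9 of the 15 Gal counts of control skin, and replicate 6 held 4 of the 8 Gpr151 counts.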

How the data were processed

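PolyA RNA of 24 libraries (4 groups of 6, grouped by title) was sequenced, per the labels. Per the submitters' processing notes, bcl2fastq 2.20.0, Trimmomatic, HISAT2 2.1.0 and StringTie 2.1.3b were used with GRCm38/mm10; the counting tool and its strand setting are not named in these notes. The authors deposited raw read counts for each gene. TPM values were computed by the authors and served for levels between genes and as alternatives. FPKM values computed by the authors were not used. Each comparison was fitted alone to the counts in edgeR 4.0.16 (R 4.3.3; filterByExpr, TMM, robust quasi-likelihood F test, no covariates), with BH adjustment over all genes tested and a threshold of 0.05. SEs are the log2 fold change over the root of F. Likeness used log2 CPM with a prior count of 2. Alternatives were DESeq2 1.42.0, RLE scaling, other filters, a replicate block, limma 3.58.1 on log2(TPM + 1) and log2(TPM + 0.1), and each library left out. The tests were run on simulated counts first.

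The members and lists were chosen with earlier results of these data known. Genes were named by a rule: the 5 members, up to 4 genes of each list with the smallest p in a tissue, and the 5 genes nearest in pattern. Npy, Uchl1, Sox11 in DRG, Cckbr, Flrt3 and Smad1 in skin, genes named from DESeq2 calls, Gcat, Slc6a5 and Mog, and the TPM values of neuropeptides, were named after their values were seen. A few genes that the rule would name are not reported here. Coordinates are of GRCm38.p6 (RefSeq). No duplicates were found among 60 within-group pairs (lowest chi-square per gene 9.13). Samples with the same replicate number did not deviate together between model and control. Between control DRG and control skin, correlations of same-numbered deviations were -0.025 to 0.066. Those of replicates 1 and 2 (0.046 and 0.066) were above their highest with another number (0.022 and 0.03). The numbers were not taken as pairs, and whether same-numbered ganglia and skin share an animal is not given.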

Additional observations from a re-analysis of the deposited data

Results flagged for a closer look

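In model skin Gal was highest in replicate 4, at 4.45 CPM, far from the other 5 libraries: the gap to the next value was 0.764 of the range of the group. It passed Dixon's 95% critical value, and it was the 1 value to do so in 13 groups of member values examined. By definition, chance passes this value in about 1 in 20 groups of normally distributed values. The ratio was taken on CPM without logs, where that rate may not hold. The same library was highest of model skin in Mymx (4.55 CPM), in the regenerating muscle sum (254 CPM) and in the macrophage sum (1411 CPM). The mature muscle genes, none of which passed (edgeR QL), summed to 1046 to 10085 CPM in model skin and 2755 to 9854 CPM in control skin. This library was highest of model skin in that sum too, and low in the hair follicle sum (1787 CPM). Without it Gal was 26.5-fold higher in model skin than in control skin, against 37.3-fold with it. What sets this library apart was not tested.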

How the results depend on the processing

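The log2 fold changes of the members kept their direction under all alternatives run, and 204 of 206 values lay within the spread between replicates or kept their call. The exceptions came from the pseudocount on TPM, which shrinks low values: on log2(TPM + 1) Gpr151 in DRG was 1.64 and Gal in skin 2.22. Leaving out each library in turn, log2 fold changes were 1.77 to 2.01 (Gal, DRG), 1.87 to 2.14 (Gpr151, DRG), 4.73 to 6.13 (Gal, skin), and between control DRG and control skin 8.30 to 9.50 (Gal), 5.57 to 6.51 (Gpr151) and 0.83 to 1.21 (Galr2).

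The number of genes called moved more; the cause was not tested. In DRG 19 genes were called, against 135 in DESeq2, 12 with at least 1 CPM in 6 libraries, 6 with the replicate block, and 11 to 36 with 1 library left out (11 without control DRG replicate 1 or 4, 12 without model DRG replicate 3, 36 without model DRG replicate 6). In skin 3892 were called, and 2564 to 6278 with 1 library left out (6278 without control skin replicate 2, 2586 and 2564 without control skin replicates 3 and 5). Falling genes in skin, 1137, were 2398 in DESeq2, 747 without a filter and 460 and 449 on log2(TPM + 1) and log2(TPM + 0.1). Under the replicate block, 2 injury genes rose in DRG, none of the 2 falling injury genes, Nmb, Htr1d, Npy2r or Adora1 passed in skin, and 540 genes fell in skin. The numbers did not pair model with control samples (correlations of deviations -0.38 to -0.05 in DRG and -0.51 to 0.26 in skin). Filters of 1 CPM removed the members in skin, so no value could be had there. Among the lists, 62 of 532 counts moved by over 1.5 times or to or from 0. Depth limits Galr1, Galr3 and Gpr151 in skin and Galr3 in DRG, where counts were 0 or few.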
